A study of Mus musculus with 24 samples.

Results

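The nuclear genome encodes the protein subunits of the ribosomes inside mitochondria, and this account follows their transcripts in mouse subcutaneous fat after exercise or a sham bout at 2 times of day. The members were all genes of the deposited expression table whose symbol begins with Mrpl or Mrps followed by digits, leaving out symbols that hold -ps. This rule, which uses names only, gave 77 of the 16233 genes. Mrpl23-ps1 was the 1 row left out as a pseudogene, and its mean value was 0.338. By textbook assignment, 50 members belong to the large subunit, among them Mrps18a and Mrps30 in spite of their names, and 26 to the small subunit. The remaining member, Mrps36, is now known as a component of the oxoglutarate dehydrogenase complex of the citric acid cycle, so the gene name and the protein's place differ. All 77 were annotated as protein coding in GENCODE M21, a mouse annotation, and they lay on 17 chromosomes.

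Mitochondrial ribosomes translate the few messages of mitochondrial DNA, which encode core subunits of the respiratory chain and of ATP synthase. Their RNA comes from mitochondrial DNA, but every protein subunit is made in the cytosol from nuclear transcripts and imported. Some subunits descend from bacterial ribosomal proteins, and others are additions specific to mitochondria. In white fat, mitochondrial content is low in the large lipid-storing adipocytes and higher in thermogenic brown or beige adipocytes.

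The tissue was inguinal white adipose tissue of male C57BL6 mice aged 10 to 11 weeks, per the labels and the series' design text. RUN mice had 1 hour of exercise and SED mice spent the same time on a treadmill that gave no exercise. Each treatment was studied at ZT3, early in the rest phase, and at ZT15, when mice begin their active phase; ZT counts hours from lights on. The labels give ZT as the time of sampling, and the hour after the bout is not stated for these libraries. The 4 groups, ZT3_SED, ZT3_RUN, ZT15_SED and ZT15_RUN, held 6 libraries each. A number after the group name marks a library, as in ZT3_RUN_4, and these numbers pair nothing. Whether every library came from its own mouse is not spelled out in the labels, and a p-value here reflects variation among libraries, which may be partly technical.

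The libraries held between 18.5 M and 34.7 M reads counted in genes, and the members took 0.199% ± 0.010 of them in ZT3_SED, 0.205% ± 0.016 in ZT3_RUN, 0.209% ± 0.009 in ZT15_SED and 0.196% ± 0.020 in ZT15_RUN (mean ± SD, n = 6). The lowest read count of any member in any library was 65. Adipocyte markers were high in every library, and Adipoq, which encodes the hormone adiponectin, ranged from 1101 to 3183. Some libraries stood apart in markers of other tissue. The B cell gene Cd79a reached 99.2 in ZT3_RUN_4, and was also raised in ZT15_SED_5 (54.6) and ZT15_SED_3 (14.1), while it lay between 0.240 and 1.33 elsewhere. Ucp1, the uncoupling protein of thermogenic fat, was at 532 in ZT15_RUN_1, 526 in ZT15_RUN_6 and 208 in ZT15_SED_1, and these libraries held the highest values of Myh4, a fast muscle myosin (8995, 22113 and 18297). Myh4 was also high in ZT3_SED_1 (8207), ZT3_SED_4 (6967) and ZT3_RUN_5 (5208), where Ucp1 was at 8.01, 1.89 and 10.1. Results are given with and without these libraries where that mattered.

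Every member was detected in all 24 libraries. Levels are given as deposited, as TMM-scaled CPM, and are compared between genes only after division by coding length in kilobases. The median member stood at 38.1 per coding kilobase, and the highest was 15.6 times the lowest. Mrpl51, a mitochondria-specific large subunit protein, was highest at 133. It was followed by Mrpl30 at 120, Mrps21 at 112 and Mrpl33 at 105, which are homologs of bacterial proteins. The lowest were Mrpl23 at 8.52, a protein of the large subunit's exit tunnel region, then Mrps34 at 8.73, Mrps27 at 11.2 and Mrpl22 at 14.3. Division by the whole exon length instead changed the order, and only 1 of the 4 highest and 2 of the 4 lowest were then the same. The median per coding kilobase was 39.6 for the large subunit and 32.8 for the small, and 42.7 for the 48 bacterial homologs against 32.7 for the 28 mitochondria-specific proteins.

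**Figure D1:**
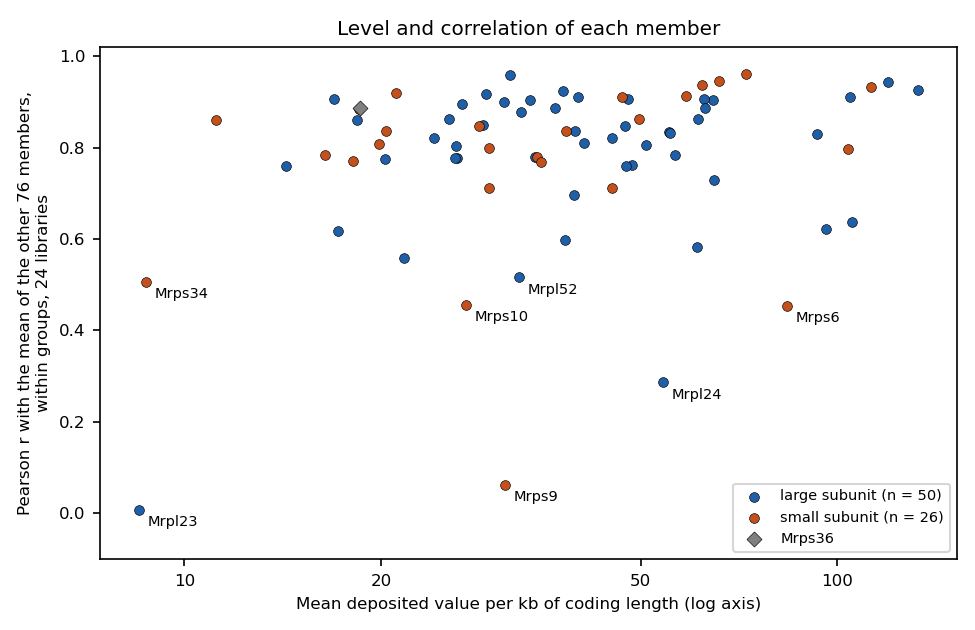
Each point is 1 member; the horizontal log axis gives its mean deposited value per kilobase of coding length and the vertical axis its Pearson correlation with the mean of the other members across 24 libraries after removing group means. Most points lie above 0.5 at every level, and Mrpl23, Mrps9, Mrpl24, Mrps6 and Mrps10 lie under it.

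The start regions of the members are shown because letters known as binding sites of regulators of nuclear genes for mitochondrial proteins recurred in them. The factors NRF1, GABPA (which binds ETS-type letters) and YY1 are textbook regulators of such genes. RefSeq promoters (GRCm38.p6, from 250 bases before to 50 bases after the start) were matched for 68 members, in 74 promoters. The letters were chosen with earlier results known, were searched as exact matches on both strands, and no motif was counted inside another. CCGGAAG, an ETS-type core, was present in 25 of the 74 (33.8%), against 8.86% of all 32851 promoters and 15.2% of those of genes in the table. AAGATGGCG, a YY1-type site, was present in 8 (10.8%), against 1.40% of all promoters and 2.50% of those of genes in the table. The NRF1 palindrome, whose letters are the capitals of the first 2 sequences below, was present in 3 (4.05%), against 0.971% and 1.76%. CCAAT was at 39.2%, against 37.4% of all promoters and 37.1% of those of genes in the table, and TATAAA at 6.76%, against 13.6% and 8.04%. The median GC content was 58.5% in the members and 52.7% in all promoters. A match describes letters only.

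The following stretches are the 120 bases just before the start, 5′ to 3′ on the gene's strand, with matched letters in capitals. The NRF1 palindrome stood in the promoters of Mrpl9 (chr3:94443216-94443335, plus strand) and of Mrpl32 (chr13:14613038-14613157, minus strand), whose product is trimmed by a mitochondrial protease before it joins the large subunit:
Mrpl9: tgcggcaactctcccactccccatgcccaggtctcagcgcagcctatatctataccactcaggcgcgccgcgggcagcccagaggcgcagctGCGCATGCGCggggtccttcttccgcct
Mrpl32: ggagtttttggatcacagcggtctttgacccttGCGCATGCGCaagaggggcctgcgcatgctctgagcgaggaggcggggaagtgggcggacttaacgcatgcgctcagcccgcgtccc
The ETS-type core is shown for Mrpl51 (chr6:125192080-125192199, plus strand), the member of highest level per coding kilobase, and the YY1-type site, on the reverse strand, for Mrpl36 (chr13:73330889-73331008, plus strand) and Mrps11 (chr7:78783011-78783130, plus strand):
Mrpl51: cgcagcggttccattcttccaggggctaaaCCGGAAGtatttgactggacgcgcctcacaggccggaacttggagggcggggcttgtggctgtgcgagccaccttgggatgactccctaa
Mrpl36: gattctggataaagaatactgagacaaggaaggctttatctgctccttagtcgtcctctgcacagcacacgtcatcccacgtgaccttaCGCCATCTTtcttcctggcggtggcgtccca
Mrps11: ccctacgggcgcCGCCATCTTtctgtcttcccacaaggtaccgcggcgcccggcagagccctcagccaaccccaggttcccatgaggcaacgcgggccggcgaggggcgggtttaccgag
Mrps7 (chr11:115604020-115604139, plus strand) and Mrps14 (chr1:160195095-160195214, plus strand), 2 of the 3 members whose levels followed the others most closely, and Mrpl23 (chr7:142532912-142533031, plus strand), which followed them least, are shown as promoters without an NRF1, ETS-type or YY1-type match:
Mrps7: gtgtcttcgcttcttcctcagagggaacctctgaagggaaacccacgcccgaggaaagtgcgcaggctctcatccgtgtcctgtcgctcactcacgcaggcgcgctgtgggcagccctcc
Mrps14: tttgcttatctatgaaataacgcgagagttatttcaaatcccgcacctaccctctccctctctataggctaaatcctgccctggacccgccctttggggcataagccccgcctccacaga
Mrpl23: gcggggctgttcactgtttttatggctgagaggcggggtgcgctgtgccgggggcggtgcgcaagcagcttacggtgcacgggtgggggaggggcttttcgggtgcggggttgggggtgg

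Many members start near the start of a gene on the opposite strand, either pointing away from it or running into it. In GENCODE M21, 33 of the 77 (42.9%) had a protein-coding gene on the opposite strand starting within 1000 bases, against 14.6% of the 14622 protein-coding genes of the table. Mrpl46 and Mrps11, a large and a small subunit gene, were each other's partner, 412 bases apart. Mrpl36 started 29 bases from Ndufs6 and Mrpl47 615 bases from Ndufb5, and both partners encode subunits of respiratory complex I. Of the 31 partners in the table, 17 correlated positively with their member within groups over the 24 libraries and 14 negatively. The correlation ran from -0.66 for Mrps7 and Gga3 to 0.88 for Mrpl47 and Ndufb5. The pair of Mrpl46 and Mrps11 (0.83) was counted from both sides. None of these partners passed the threshold in any comparison described below. Exons of 32 members overlapped another gene, for 27 of them on the opposite strand. Among these were all the pairs named above: Mrpl46 with Mrps11, Mrpl36 with Ndufs6, Mrpl47 with Ndufb5 and Mrps7 with Gga3. The kit keeps the strand, but the strand setting of the counting is not given in the sources used here, so reads of such pairs may not be told apart.

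The members varied together from library to library. The value of each member was set against its own mean over the 24 libraries on the log2 scale, and the median of these deviations was taken in each library. It was highest in ZT3_RUN_6 (0.27, with 76 of 77 members above their mean), ZT15_SED_1 (0.26, with 76), ZT15_RUN_1 (0.25, with 74) and ZT15_RUN_6 (0.24, with 72). It was lowest in ZT15_RUN_2 (-0.27, with 0 of 77 above their mean) and ZT3_RUN_4 (-0.27, with 7). The other 18 libraries lay between -0.14 and 0.05. Of the 77 members, 73 had their highest value in 1 of the 4 high libraries and 54 their lowest in 1 of the 2 low ones. The libraries were picked by the median of these same members, so high counts follow from the choice and are no separate evidence. The same counts over all genes were not taken. These 6 libraries belong to 3 of the 4 groups and to both treatments.

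**Figure D2:**
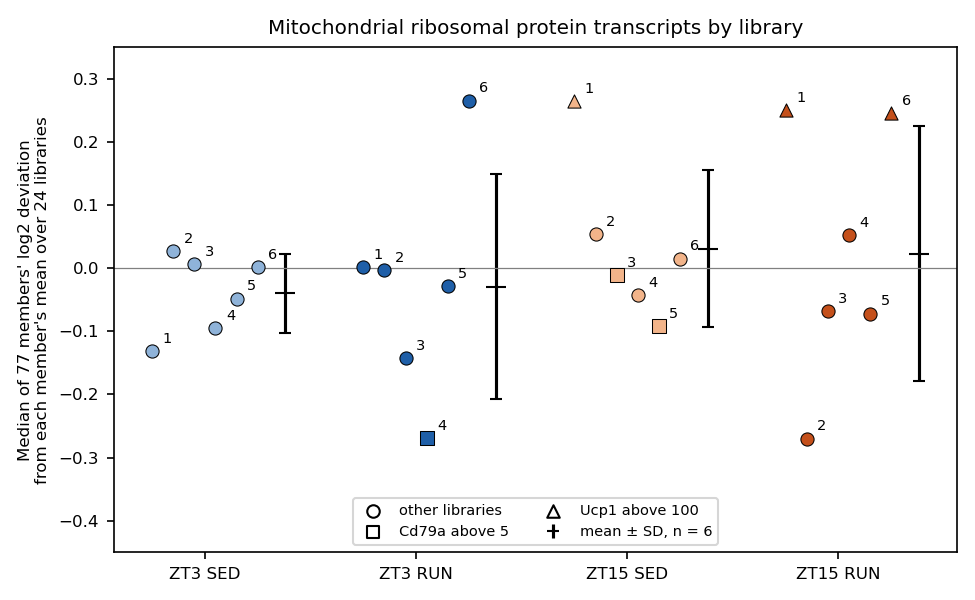
The vertical axis is the median log2 deviation of the 77 members from each member's mean over 24 libraries, by group, with library numbers beside the points; bars give mean ± SD over 6 libraries. The groups overlap, libraries 1 and 6 of ZT15_RUN and library 1 of ZT15_SED, which are high in Ucp1, lie near 0.25, and library 4 of ZT3_RUN, high in Cd79a, lies at -0.27. Libraries 5 and 3 of ZT15_SED, also high in Cd79a, lie at -0.09 and -0.01.

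In these 6 libraries the nuclear-encoded respiratory chain and ATP synthase list (75 genes) went the same way, with medians of 0.37, 0.46, 0.67 and 0.71 in ZT3_RUN_6, ZT15_SED_1, ZT15_RUN_1 and ZT15_RUN_6, and of -0.43 and -0.61 in ZT15_RUN_2 and ZT3_RUN_4. The list of 79 cytosolic ribosomal proteins stood at 0.12, -0.02, 0.03 and -0.23 in the 4 high libraries, and at -0.12 and 0.82 in the 2 low ones. Of the 4 high libraries 3 were those with Ucp1 above 100, while ZT3_RUN_6 held Ucp1 at 27.1 and Myh4 at 397. ZT3_RUN_4 was the library of highest Cd79a, with Adipoq at its lowest, and in it the 20 lymphocyte markers summed to 2333 against 23.9 to 45.4 in all ZT3 libraries but that one. The median of the lymphocyte markers was 4.93 in ZT3_RUN_4, 4.57 in ZT15_SED_5 and 2.74 in ZT15_SED_3. In ZT15_SED_5 and ZT15_SED_3 the member medians were -0.09 and -0.01. ZT3_SED_1 and ZT3_SED_4, high in Myh4 but not in Ucp1, had member medians of -0.13 and -0.10. In ZT15_RUN_2, Ucp1 was at 2.44 and Myh4 at 61.4, low values that other libraries shared. Its median of Schwann cell markers was the highest of the 24 libraries (0.78). Its medians of macrophage (0.73) and preadipocyte markers (0.54) were the highest at ZT15. Over all 24 libraries both of these were highest in ZT3_RUN_2 (0.90 and 1.06), where the member median was -0.003. The part of these other tissues in the member levels was not tested, and in bulk tissue fewer cells of a type and less RNA per cell cannot be told apart.

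Within groups, each member was correlated with the mean of the other 76 over the 24 libraries, which share the scaling of each library. The median Pearson r was 0.83 (Spearman's rho 0.77), and 72 members lay above 0.5. Mrps7 and Mrpl2 were highest (0.96 for both), and Mrpl23 (0.01), Mrps9 (0.06), Mrpl24 (0.29), Mrps6 (0.45) and Mrps10 (0.46) were lowest. Without the 2 libraries farthest from the median, ZT3_RUN_6 and ZT15_SED_1, the median r was 0.79. In the 18 libraries left without all 6 high or low ones it was 0.57, with 46 members above 0.5. Those 6 were chosen as the extremes of the set itself, so a lower r was bound to follow from leaving them out. The same measure gave a median of 0.97 in the respiratory chain list and 0.94 in the cytosolic ribosomal proteins. It was not taken for other genes, so whether the members' r is high for genes of their level was not tested. Members with an ETS-type match had a median r of 0.83 (25 members) and those with a matched promoter and no such letters 0.85 (43 members). The SD of a member within groups on the log2 scale had a median of 0.18, against 0.23 over all genes, which were not matched to the members in level. Mrpl42 (0.33), Mrps36 (0.31) and Mrpl34 (0.31) varied most, and Mrps30, Mrpl33 and Mrpl24 least (0.10 each).

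**Figure D3:**
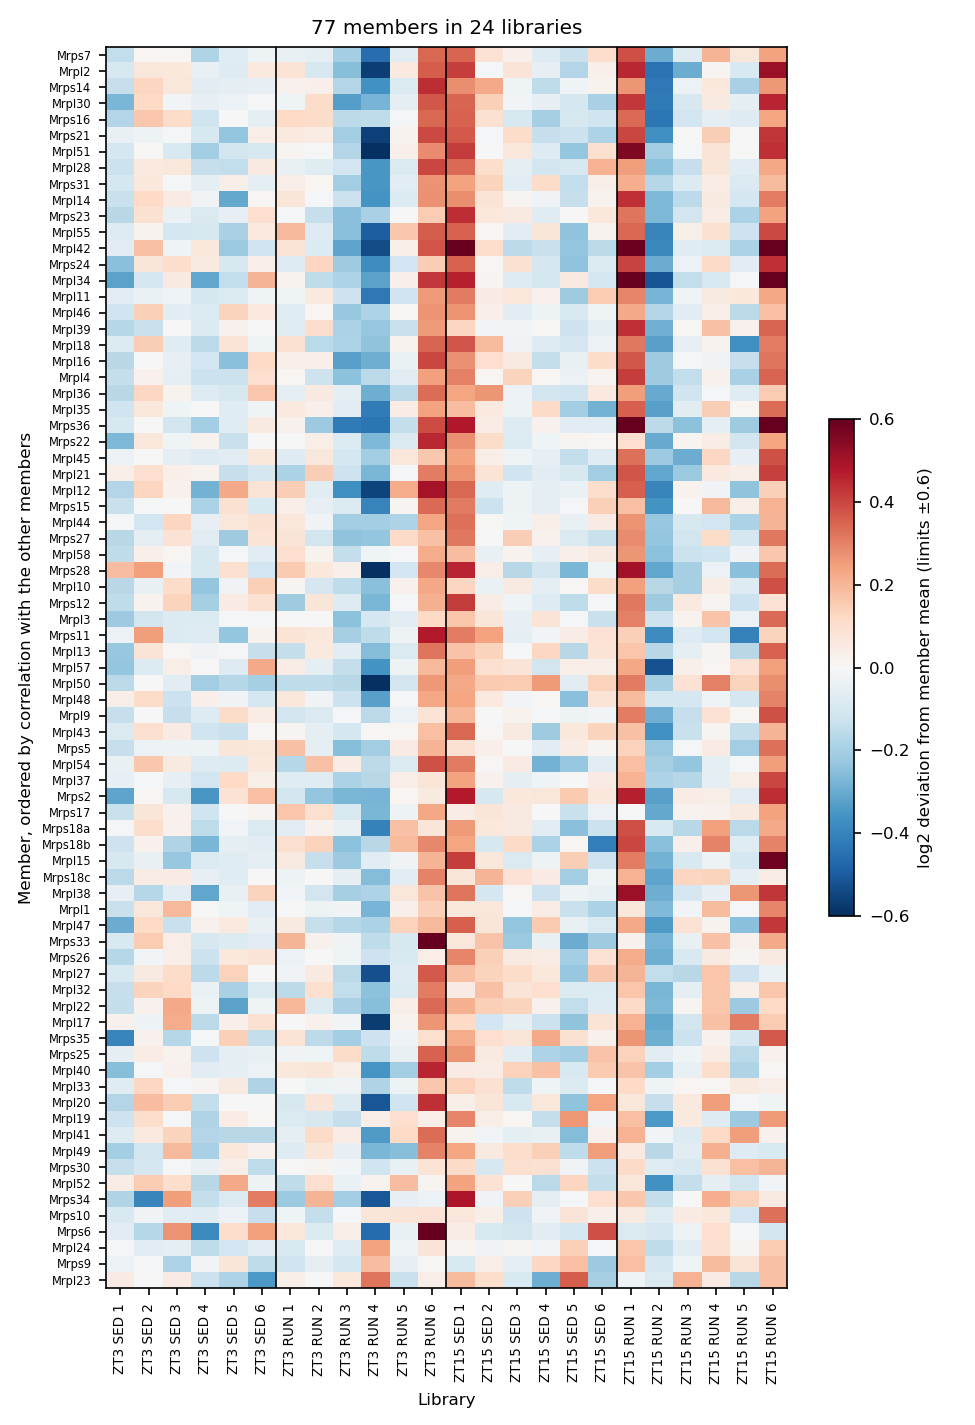
Rows are the 77 members ordered by their correlation with the others, columns are the 24 libraries by group, and colour is the log2 deviation of a member from its mean. Library 6 of ZT3_RUN, library 1 of ZT15_SED and libraries 1 and 6 of ZT15_RUN form red columns through most rows, and library 4 of ZT3_RUN and library 2 of ZT15_RUN blue ones, while the lowest rows do not follow them.

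Exercise at ZT3 was assessed by comparing ZT3_RUN with ZT3_SED, and the members hardly differed. No member passed an adjusted p of 0.05 (limma's moderated test on log2 of the value + 1, Benjamini-Hochberg adjustment over 16233 genes), where 0% of all genes did. No member had an unadjusted p under 0.05 either, against 2.27% of all genes, and edgeR and DESeq2 on the recovered reads called 0 members (0% of all genes for both). The 95% interval of every member lay within a 1.5-fold difference either way, against 78.8% of all genes, and that of 65 members within 1.25-fold, against 41.1%. Here and in the comparisons below, all genes means genes of every level, and genes matched to the members in level were not compared. Log2 differences of RUN minus SED ran from -0.10 to 0.16 with a median of 0.00. They were above 0 for 39 of the 77, against 51.8% of all genes. That count rests on 2 libraries, since it was 66 without ZT3_RUN_4 and 14 without ZT3_RUN_6, and it was 59 when reads were scaled without the TMM factors of the deposited values.

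The 2 members of smallest p in each direction at ZT3 all overlapped between groups. Mrpl24, a large subunit protein that varied little, was at 31.6, 33.6 and 34.8 in ZT3_SED (lowest, median and highest of 6) and at 32.9, 34.7 and 41.7 in ZT3_RUN. Its log2 difference was 0.10 ± 0.06 (SE), with an adjusted p of 0.989 by limma. Mrpl23 was at 3.33, 4.27 and 4.70 in ZT3_SED and at 4.02, 4.65 and 5.87 in ZT3_RUN, a log2 difference of 0.15 ± 0.11. ZT3_RUN_4, the library high in Cd79a, held the highest ZT3_RUN value of both and of Mrps9, and 7 of the 77 members lay above their own mean in it. On the lower side were Mrps34, a small subunit protein (-0.10 ± 0.13), and Mrpl44, a large subunit protein with a fold like that of RNase III (-0.07 ± 0.10).

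Exercise at ZT15 gave the same picture for the set with somewhat wider spread. By limma 0 of the 77 passed the threshold, where 0.641% of all genes did, and 0 had an unadjusted p under 0.05, where 12.7% of all genes did. edgeR and DESeq2 called 0 members, against 0.745% and 3.75% of all genes. All 77 intervals lay within 1.5-fold, against 73.0% of all genes, and 56 within 1.25-fold, against 35.2%. Log2 differences ran from -0.22 to 0.17 with a median of -0.00, and 37 members were above 0, against 50.7% of all genes. This count was 17 without the 3 libraries high in Ucp1, 21 without ZT15_RUN_1, 18 without ZT15_RUN_6, 24 without the libraries high in Cd79a and 60 without ZT15_RUN_2. It was 61 when libraries were centred on their medians and 6 when scaled without TMM factors, a scaling under which the median of all genes was -0.09. No direction of the set at ZT15 therefore held across libraries and scalings.

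Mrps11, a small subunit protein of the platform that faces the messenger RNA, had the largest difference at ZT15. It was at 11.1, 12.1 and 14.5 in ZT15_SED and at 8.47, 10.8 and 12.9 in ZT15_RUN. The log2 difference was -0.22 ± 0.12, with a limma adjusted p of 0.455 and a 95% interval from -0.46 to 0.03. Its partner Mrpl46 shares exon sequence with it on the opposite strand. Mrps18b was at 9.02, 12.0 and 14.7 in ZT15_SED and at 10.2, 14.0 and 16.6 in ZT15_RUN, a log2 difference of 0.17 ± 0.12 (limma adjusted p = 0.578). Mrpl41, a mitochondria-specific large subunit protein, differed by 0.14 ± 0.09 and Mrpl52, another, by -0.13 ± 0.09. In all 4 the groups overlapped.

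Averaged over both times, exercise again left 0 members past the threshold by limma, against 0.142% of all genes, and 0 with an unadjusted p under 0.05, against 7.74%. edgeR (0.166% of all genes) and DESeq2 (1.19%) called 0 members. The median was 0.01, with 42 members above 0 against 49.1% of all genes. The count was 57 without ZT3_RUN_4, 57 without ZT15_RUN_2 and 53 centred on library medians. It was 20 without the libraries high in Ucp1, 21 without ZT3_RUN_6, 27 without ZT15_RUN_1, 22 without ZT15_RUN_6 and 16 without TMM factors. All 77 intervals lay within 1.5-fold, against 88.8% of all genes. Mrps18b had the largest difference (0.17 ± 0.09, limma adjusted p = 0.697), with values from 10.0 to 12.6 in ZT3_SED and from 10.3 to 15.3 in ZT3_RUN.

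**Figure D4:**
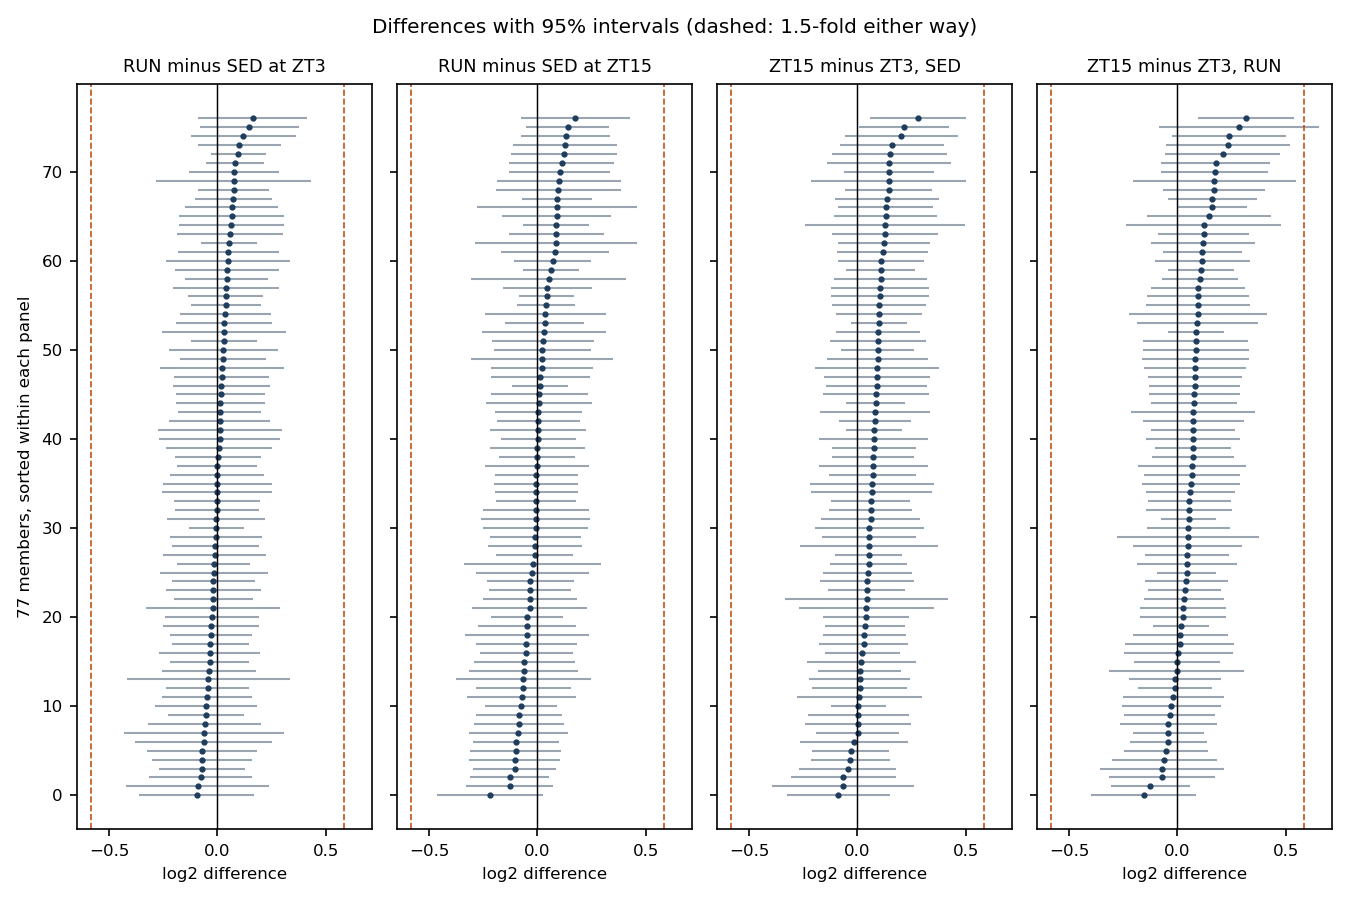
Points are log2 differences of the 77 members, sorted within each panel, with 95% intervals as lines, for exercise at ZT3 and at ZT15 and for time of day in SED and RUN; dashed lines mark 1.5-fold either way. The exercise panels are centred on 0, the time panels are shifted to the right by a median of 0.07, and 1 interval, that of Mrps36 in RUN, crosses a dashed line.

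Time of day in SED mice was assessed as ZT15_SED minus ZT3_SED, and most members were slightly higher at ZT15. The log2 difference was above 0 for 70 of the 77, against 54.0% of all genes, and the median was 0.07, against 0.02 over all genes. The members vary together between libraries, so this count does not stand for 77 separate observations. Their median per library was -0.04 ± 0.06 in ZT3_SED and 0.03 ± 0.12 in ZT15_SED (mean ± SD, n = 6), and the groups overlapped. None of the members passed the threshold by limma, where 1.18% of all genes did, and 2 had an unadjusted p under 0.05, where 12.1% did. edgeR (1.18% of all genes) and DESeq2 (3.45%) called 0 members. All 77 intervals lay within 1.5-fold, against 73.7% of all genes. The count above 0 was 52 and the median 0.04 without ZT15_SED_1, which is the library of this group high in Ucp1 and Myh4, and the count stayed between 52 and 72 over all alternatives run. Marker lists of other cells differed in the same comparison: the log2 difference was below 0 for 16 of 16 skeletal muscle markers (median -1.57), 10 of 10 macrophage markers (-0.53) and 8 of 8 preadipocyte and fibroblast markers (-0.57), and above 0 for 20 of 20 lymphocyte markers (1.46) and 9 of 10 brown and beige fat markers (0.46). Among these libraries the lymphocyte markers were raised in ZT15_SED_3 and ZT15_SED_5 only. The part of all these markers in the member values was not tested. The median of the members was 0.07 in the large and 0.07 in the small subunit, and a difference between them was not tested.

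Mrpl50, a mitochondria-specific protein of the large subunit, had the smallest p of all members. It was at 37.8, 39.0 and 43.9 in ZT3_SED and at 42.0, 49.0 and 52.6 in ZT15_SED, so that only the lowest ZT15 library reached into the ZT3 range. The log2 difference was 0.28 ± 0.11, with a limma adjusted p of 0.255. Over the alternatives this p ran from 0.0482, in a fit of these 2 groups alone, to 0.431, without the fourth ZT3_SED library. Mrps35, a small subunit protein, was at 21.0, 26.5 and 30.9 in ZT3_SED and at 28.5, 29.9 and 32.9 in ZT15_SED (0.21 ± 0.10, limma adjusted p = 0.395). On the lower side Mrpl17 differed by -0.09 ± 0.12 and Mrps33 by -0.06 ± 0.12, and the sign of Mrps33 turned (0.02) without the libraries high in Cd79a.

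Time of day in RUN mice, ZT15_RUN minus ZT3_RUN, shares no library with the SED comparison. Here 61 of the 77 members were above 0, against 48.9% of all genes, with a median of 0.07 against -0.01 over all genes. Again the members vary together, and their median per library was -0.03 ± 0.18 in ZT3_RUN and 0.02 ± 0.20 in ZT15_RUN (mean ± SD, n = 6). None of the members passed the threshold by limma, where 4.19% of all genes did, and 1 had an unadjusted p under 0.05, where 20.8% did. edgeR (4.58% of all genes) and DESeq2 (10.4%) called 0 members. The interval lay within 1.5-fold for 76 members, against 67.8% of all genes, and the exception was Mrps36 (0.28 ± 0.18). The direction did not hold across libraries: without ZT15_RUN_1 and ZT15_RUN_6, which are high in Ucp1 and Myh4, 18 members were above 0 and the median was -0.05. The 10 brown and beige fat markers summed to 66.2 to 299 in ZT3_RUN and 126 to 1737 in ZT15_RUN, and all 10 were above 0 (median 0.92), while 9 of 10 macrophage markers (-0.53), 15 of 16 muscle markers (-0.43) and 20 of 20 lymphocyte markers (-0.98) were below 0. Among these libraries the lymphocyte markers were raised in ZT3_RUN_4 only. The part of all these markers in the member values was not tested. The direction of the members also turned with the scaling, since without TMM factors 11 members were above 0 with a median of -0.07, where the median of all genes moved to -0.13. Centred on library medians, 72 were above 0.

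Mrpl50 was again the member of smallest p, at 27.6, 39.4 and 52.7 in ZT3_RUN and at 38.1, 50.9 and 54.7 in ZT15_RUN. The groups overlapped, because ZT3_RUN_6 was as high as the ZT15 libraries and ZT15_RUN_2 as low as the ZT3 ones. The log2 difference was 0.32 ± 0.11, with a limma adjusted p of 0.0963. Without ZT3_RUN_6 this p was 0.0244 and without ZT15_RUN_2 it was 0.0304, while without the libraries high in Ucp1 it was 0.357 with a log2 difference of 0.22. Mrpl3, a large subunit protein with a bacterial homolog, was at 35.2, 41.0 and 45.7 in ZT3_RUN and at 38.4, 44.9 and 53.4 in ZT15_RUN (0.16 ± 0.08, limma adjusted p = 0.241). Mrps11 (-0.16 ± 0.12) and Mrpl52 (-0.12 ± 0.09) led the lower side, and their ranges overlapped too.

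**Figure D5:**
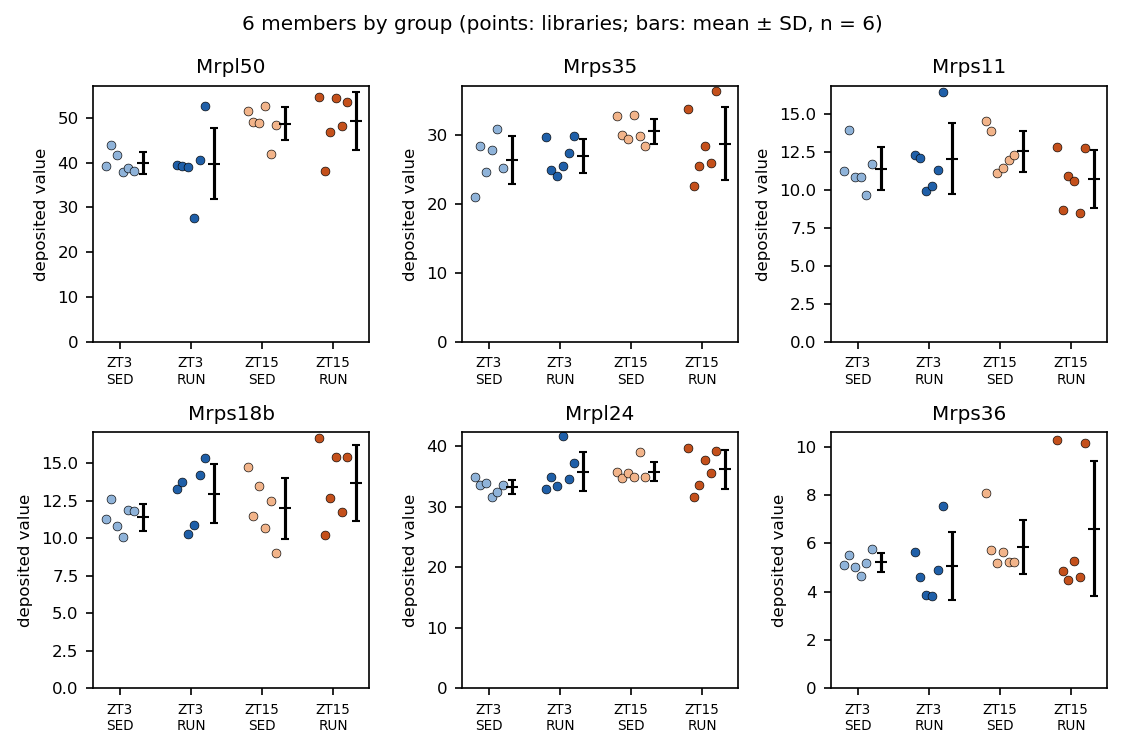
Deposited values of Mrpl50, Mrps35, Mrps11, Mrps18b, Mrpl24 and Mrps36 in the 4 groups, each point a library, bars giving mean ± SD (n = 6), with axes from 0. Mrpl50 lies higher at ZT15 in both treatments with overlapping ranges, and in Mrps36 libraries 1 and 6 of ZT15_RUN lie near 10 while the other 4 lie near 5.

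Whether exercise acted differently at the 2 times was tested as an interaction, the ZT15 difference minus the ZT3 difference. By limma 0 members passed, as did 0% of all genes, and 0 had an unadjusted p under 0.05, against 7.84% of all genes. edgeR (0% of all genes) and DESeq2 (1.47%) called 0 members. The median was -0.01, 34 members were above 0 against 50.7% of all genes, and 74 intervals lay within 1.5-fold, against 53.7%. The count above 0 ran from 3, without TMM factors, to 62, centred on library medians. It was 11 without the libraries high in Ucp1, 13 without those high in Cd79a, 17 without ZT3_RUN_4, 60 without ZT3_RUN_6, 53 without ZT15_SED_1, 22 without ZT15_RUN_1, 59 without ZT15_RUN_2 and 23 without ZT15_RUN_6. The 2 members of smallest p in each direction were at -0.28 ± 0.17 for Mrps11 (limma adjusted p = 0.585), 0.21 ± 0.16 for Mrpl17, -0.18 ± 0.14 for Mrpl40 and 0.16 ± 0.17 for Mrps24, a protein near the entry of the messenger RNA.

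Members with particular roles followed the same course. Mrpl12, a stalk protein that recruits translation factors, was at 36.6 ± 4.89 in ZT3_SED, 36.9 ± 10.1 in ZT3_RUN, 37.6 ± 4.61 in ZT15_SED and 36.3 ± 6.93 in ZT15_RUN (mean ± SD, n = 6). Mrps12, a protein of the decoding centre, was at 16.9 ± 1.65, 16.5 ± 2.22, 17.6 ± 2.81 and 17.4 ± 2.41 in the same order. Mrpl58, a hydrolase that frees stalled chains, was at 17.1 ± 0.875, 18.1 ± 1.66, 18.1 ± 1.16 and 17.6 ± 2.55. For these 3 the differences between groups were smaller than the SD in at least 1 of the groups compared. The 3 Mrps18 paralogs, of which Mrps18a sits in the large subunit and the others in the small, stood at 56.4, 16.4 and 34.7 per coding kilobase for Mrps18a, Mrps18b and Mrps18c. In SED mice at ZT3 the deposited values of Mrps18a were 29.6, 32.7 and 35.5 and those of Mrps18c 14.0, 15.5 and 16.4 (lowest, median, highest).

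Mrps36, the member outside the ribosome, varied between libraries along with the set (r = 0.89). It was at 4.65, 5.14 and 5.77 in ZT3_SED, 3.80, 4.75 and 7.55 in ZT3_RUN, 5.17, 5.43 and 8.09 in ZT15_SED and 4.48, 5.05 and 10.3 in ZT15_RUN. The highest library of each of the last 3 groups was 1 of the 4 in which the whole set was high. Mrpl42 ranged from 31.1 in ZT3_RUN_4 to 75.5 in ZT15_RUN_6, and Mrpl34 from 11.5 in ZT15_RUN_2 to 27.3 in ZT15_RUN_1, all 4 of them libraries in which the set was low or high. At the other end, Mrpl33 stayed between 34.0 and 43.4 and Mrps30 between 25.8 and 33.3.

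Other parts of mitochondrial translation were read from lists of assembly and rRNA-modifying factors (26 genes measured), translation factors (20), tRNA synthetases (17), and mitochondrial DNA transcription and replication proteins (12). In each of these 4 lists 0 genes passed the threshold by limma or edgeR in any of the 6 comparisons. Of their 75 genes together, 11 had an unadjusted limma p under 0.05 for exercise at ZT15 (12.7% of all genes), 13 for SED (12.1%) and 10 for RUN time of day (20.8%), 7 for the interaction (7.84%), 4 for the average (7.74%) and 0 at ZT3 (2.27%). DESeq2 called 1, 2 and 3 of them in the first 3 of these (3.75%, 3.45% and 10.4% of all genes), which were Polg2 at ZT15, Nsun4 and Mterf2 in SED, and Mrm3, Tfb2m and Mterf1a in RUN mice. Their medians for SED time of day were 0.11, 0.09, 0.10 and 0.15, beside 0.07 for the members, and for RUN time of day 0.08, 0.04, 0.04 and -0.01. The exercise medians at ZT15 were -0.03, -0.04, -0.04 and -0.08, beside -0.00 for the members. A group of 5 further ribosome proteins that carry other symbols gave the 1 call of this kind: Ptcd3, a small subunit protein with pentatricopeptide repeats, rose from ZT3_RUN to ZT15_RUN. It was at 57.4, 67.1 and 78.8 in ZT3_RUN and at 69.4, 82.6 and 106 in ZT15_RUN, a log2 difference of 0.32 ± 0.09 with a limma adjusted p of 0.0379. This call held in 23 of 35 alternatives, over which the adjusted p ran from 0.0107 with DESeq2 to 0.225 without the libraries high in Ucp1. It was lost without any 1 of ZT3_RUN_1 to ZT3_RUN_4, ZT15_RUN_1, ZT15_RUN_4, ZT15_RUN_5 and ZT15_RUN_6, and also without TMM factors (log2 difference 0.17). In SED mice Ptcd3 differed by 0.28 ± 0.09, with a limma adjusted p of 0.138.

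The 13 respiratory chain subunits of mitochondrial DNA were searched for by symbol, and 0 of them were found in the table. The 75 nuclear-encoded respiratory chain and ATP synthase subunits also gave 0 calls by limma, edgeR and DESeq2, and 2 had an unadjusted limma p under 0.05 for RUN time of day (20.8% of all genes). Their median was -0.03 for exercise at ZT3, 0.10 for exercise at ZT15, 0.11 for SED time of day and 0.24 for RUN time of day. The 79 cytosolic ribosomal proteins, with 0 calls by the same tools (at an unadjusted limma p under 0.05, 9 for RUN time of day, against 20.8% of all genes, 13 for the interaction, against 7.84%, and 1 at ZT3, against 2.27%), had medians of 0.22, -0.16, 0.13 and -0.23. Against these lists the members' medians of 0.00, -0.00, 0.07 and 0.07 lay nearest 0 in each comparison. The comparisons share groups, so the values only stand side by side.

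Among regulators of mitochondrial genes, 0 of 9 passed the threshold by limma or edgeR in any comparison, and 2 had an unadjusted limma p under 0.05 for exercise at ZT15 (12.7% of all genes), 2 for RUN (20.8%) and 1 for SED time of day (12.1%), and 1 for the average (7.74%). Ppargc1a, the coactivator induced by exercise in muscle, was at 12.3, 17.5 and 42.5 in ZT15_SED and at 14.9, 51.1 and 218 in ZT15_RUN. The ranges overlapped, and the log2 difference of 1.37 ± 0.49 had a limma adjusted p of 0.212, while DESeq2 called it (1.90, adjusted p = 0.00841), as it did for RUN time of day (1.70, adjusted p = 0.0110). The 2 highest values of ZT15_RUN (218 in ZT15_RUN_6 and 111 in ZT15_RUN_1) and the highest of ZT15_SED (42.5 in ZT15_SED_1) were those of the 3 libraries high in Ucp1 and Myh4. At ZT3 it differed by 0.16 ± 0.49. Nrf1 differed with exercise by 0.21 ± 0.13 at ZT3 and 0.07 ± 0.13 at ZT15, Gabpa by 0.02 ± 0.06 and -0.04 ± 0.06, Yy1 by -0.01 ± 0.06 and -0.03 ± 0.06, Esrra by -0.02 ± 0.17 and 0.03 ± 0.17, and Myc by 0.18 ± 0.24 and 0.41 ± 0.24. None of these differences passed the limma test.

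Of the marker lists for other cells, 3 genes passed by limma in a comparison described here. They were 1 of 10 macrophage, 1 of 9 Schwann cell and 1 of 8 preadipocyte and fibroblast markers. The lymphocyte (20 genes), skeletal muscle (16), brown and beige fat (10) and endothelial (8) lists gave 0. The share called over all genes was 4.19% for RUN and 1.18% for SED time of day. Fcgr1, a macrophage receptor, fell by 1.21 on the log2 scale from ZT3_RUN to ZT15_RUN, and Cdh19, a Schwann cell cadherin, rose by 1.09. Col1a1, a collagen of fibroblasts, fell by 0.93 from ZT3_SED to ZT15_SED. The first of these calls held in 28 of 35 alternatives, the second in 34 and the third in 11. DESeq2 also called most lymphocyte markers, where limma and edgeR called 0. It called 18 of 20 for exercise at ZT15 (lower in RUN), against 3.75% of all genes, and 16 for SED time of day (higher at ZT15), against 3.45%. For RUN time of day it called 17 (lower at ZT15), against 10.4%, and for the interaction 19, against 1.47%. At an unadjusted limma p under 0.05 there were 1, 1, 0 and 2 in the same order. These markers were raised in ZT3_RUN_4, ZT15_SED_5 and ZT15_SED_3 only (list medians of 4.93, 4.57 and 2.74), and the list median was negative in every other library. In RUN time of day DESeq2 called Ucp1, Dio2, Slc27a2 and Kng2 of the brown and beige fat markers and S100b of the Schwann cell markers, in SED Myh7, Adgre1 and Cdh19, and at ZT15 the endothelial Cldn5. For RUN time of day edgeR called 2 of 10 brown and beige fat, 1 of 10 macrophage and 1 of 9 Schwann cell markers, against 4.58% of all genes. The summed level of the 10 macrophage markers ranged from 1455 to 2782 in ZT3_RUN and from 750 to 2609 in ZT15_RUN. The part of changes in cell makeup in the member levels was not tested.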

How the data were processed

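Inguinal fat of 24 libraries (6 in each of 4 groups) was sequenced from a stranded total RNA kit with ribosomal RNA removal, per the labels. The submitters' processing notes name STAR, Subread 1.6.2, featureCounts and limma 3.48.3 with no roles. Build, annotation and strand setting used for counting: not given in the sources used here. The deposited table is a normalized signal: all values came out as whole reads within 0.01 read, scaled to CPM with factors equal to edgeR's TMM factors. Depth was 18.5 M to 34.7 M reads per library, and no pair of libraries within a group agreed within sampling noise (chi-square over its degrees of freedom was at least 23.3 in all 60 pairs).

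The test was limma 3.58.1 (R 4.3.3) on log2(value + 1), with group means over all 24 libraries, a mean-variance trend and Benjamini-Hochberg adjustment over all 16233 genes, threshold 0.05, with no filter on low values. Fold changes are on that scale, which understates changes of low genes. The fit was tested on simulated data for exercise at ZT15: of 50 genes each, 7 were called at a 1.25-fold change, 26 at 1.5-fold, 43 at 2-fold and 48 at 3-fold, in a fit of 16233 genes. The 1.25-fold and 2-fold changes were all increases, and the 1.5-fold and 3-fold changes all decreases. The changed genes were drawn from genes with many reads, and the noise was independent between genes. Some members have fewer reads and the members vary together, so these rates need not hold for them. Alternatives were another pseudocount, a filter on low values, quantile and median scaling, other fits, blocks, edgeR 4.0.16 and DESeq2 1.42.0 on recovered reads, and leaving libraries out. Scaling without TMM factors and the correlations in fewer libraries were added after the data were seen. GENCODE M21 (GRCm38) gave annotation for all 16233 gene identifiers.

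The members, lists, motifs and tests were chosen with earlier results of these data known. Named genes were members past the threshold, the 2 of smallest p in each direction of each comparison (the average over both times apart), the 4 highest and lowest levels, the 3 highest and lowest SDs, the Mrps18 paralogs, members of particular role, list genes past the threshold, and chosen markers and regulators. The members under an r of 0.5, Mrpl2, the pairs with nearby starts on opposite strands, genes called by DESeq2 but not by limma, and the printed promoters were named after their values were seen.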

Additional observations from a re-analysis of the deposited data

Results flagged for a closer look

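Within groups of 6, 10 of the 128 tests for a library far from the rest (the gap to the nearest library exceeding 0.625 of the group's range, Dixon's 95% limit, over 31 named members and the median of the set) met the limit. The limit gives about 1 in 20 for independent normal values that were not selected. Here the members vary together, and Mrpl42, Mrps36 and Mrpl34 were named for their high SD. The 10 therefore cannot be set against that rate. In ZT15_SED_1, a library high in Ucp1 and Myh4, 6 members stood above the rest of their group: Mrpl42 at 71.9 (next highest 49.1), Mrps36 at 8.09 (5.73), Mrpl34 at 23.7 (17.5), Mrps12 at 23.1 (17.6), Mrpl44 at 23.2 (18.9) and Mrps34 at 8.29 (6.32). The part of these markers in the 6 values was not tested. In ZT15_SED_5, which is high in Cd79a, Mrpl24 was at 39.0 (next highest 35.6) and Mrpl41 at 16.8 (next lowest 19.6). Mrps11 in ZT3_RUN_6 was at 16.4 (next highest 12.3), and Mrpl40 in ZT3_SED_1 at 20.2 (next lowest 23.2).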

How the results depend on the processing

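No member passed the threshold in any exercise comparison or in the interaction under any alternative run. For time of day in SED mice, 1 member passed in the fit of the groups compared alone (Mrpl50, adjusted p 0.0482), and for RUN mice the number past the threshold ran from 0 to 1 as libraries were left out in turn, with Mrpl50 passing without ZT3_RUN_6 or ZT15_RUN_2. The sign of Mrps33 for SED time of day turned (0.0208) without the libraries high in Cd79a; the cause was not tested. The replicate block made from neighbouring title numbers left 0 members past the threshold in each exercise comparison, and lowered the calls over all genes at ZT15 from 104 to 19 and averaged over both times from 23 to 0; the titles' numbers are not stated to pair samples. Calls over all genes were 0 at ZT15 without the libraries high in Ucp1 and 561 with DESeq2. In RUN time of day they were 680, against 218 without the libraries high in Ucp1 and 1590 with DESeq2, in SED time of day 191 against 548 with DESeq2, and in the interaction 0 against 239 with DESeq2. Depth was no limit on detecting members, whose lowest read count was 65. The width of the 95% intervals limits what differences could be seen. Its median on the log2 scale was ± 0.22 in each comparison of 2 groups, ± 0.31 in the interaction and ± 0.16 for exercise averaged over both times.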
